A study of Rattus norvegicus with 96 samples.

Results

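Voltage-gated calcium channels let calcium into a neuron when its membrane is depolarized, and the alpha-1 subunit is the part of the channel that forms the pore. The genes of 8 alpha-1 subunits, Cacna1a, Cacna1b, Cacna1c, Cacna1d, Cacna1e, Cacna1g, Cacna1h and Cacna1i, were followed across 8 brain regions and 3 groups of rats on Affymetrix whole-genome rat arrays. The members were chosen by gene symbol, as 8 of the 14218 genes that had a probe set of their own. Of the 18 probe sets that named 1 of them alone, the brightest of each gene was used. Values are log2 signals, so a difference of 1 is a doubling of signal. A probe set's brightness also depends on its sequence, and levels are therefore compared within a gene only.

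Naive rats had no alcohol. Non-dependent rats self-administered 10% alcohol for 4 weeks and were not put into vapor. Dependent rats did the same and then breathed intermittent ethanol vapor for 4 weeks. The labels say that both drinking groups were tested again after the vapor, with a greater intake in dependent rats, so that these groups differ in vapor and in later drinking alike. Tissue was taken 3 weeks after the vapor, from age-matched naive rats as well; strain and age in weeks are not given in the labels. The microdissected regions were the medial prefrontal cortex (mPFC), the core and shell of the nucleus accumbens (NAcC and NAcSh), the central and basolateral nuclei of the amygdala (CeA and BLA), the dorsolateral (dlBNST) and ventral (vBNST) parts of the stria terminalis bed nucleus and the ventral tegmental area (VTA). Each region and group had 4 arrays, 96 in all. The paper's description puts the 8 regions in the same 4 rats per group, so regions of a group are not independent animals, and the numbers on the labels were not taken to identify a rat.

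4 arrays were left out: CeA non-dependent 2, VTA non-dependent 2, BLA non-dependent 3 and vBNST dependent 1. Their highest correlations with any other array were 0.345, 0.931, 0.954 and 0.961, against at least 0.989 for each of the other 92. Region markers were read on the naive arrays. Slc17a7, a vesicular glutamate transporter of cortical neurons, averaged 11.75 in the mPFC and 7.22 in the BLA and at most 4.18 elsewhere. The adenosine receptor gene Adora2a of striatal neurons averaged 10.02 in the NAcC and 7.79 in the NAcSh, and the dopamine transporter gene Slc6a3 averaged 10.43 in the VTA. The stress peptide gene Crh averaged 7.98 in the CeA, 8.24 in the dlBNST and 7.04 in the vBNST and at most 5.20 elsewhere, which sets these 3 regions apart from the rest but not from each other. Neurod6, a gene of cortical neurons, averaged 10.43 in the mPFC and 10.63 in the BLA, and 5.16 in the NAcSh and 4.93 in the VTA against at most 4.10 in the other regions. The mPFC arrays differed from the rest in RNA measures too: the 3′ probe set of Gapdh exceeded its middle probe set by 0.45 to 1.40, against 1.67 to 4.24 on the other arrays used. Some regions were amplified from 30 ng of RNA and others from 50 ng, so region and RNA input cannot be told apart.

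The family divides by role. Cacna1a encodes the pore of P/Q-type channels, Cacna1b that of N-type and Cacna1e that of R-type channels, which open at strong depolarization, and the P/Q and N types sit at nerve terminals, where their calcium triggers transmitter release. Cacna1c and Cacna1d encode L-type channels, found mostly on cell bodies and dendrites, where calcium entry also reaches signaling toward the nucleus. Cacna1g, Cacna1h and Cacna1i encode T-type channels, which open near the resting potential and take part in burst firing.

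Not every member gave a usable signal. The probe sets of Cacna1b and Cacna1c read well above the floor of the arrays in every region, with region means of 6.11 to 8.22 and 5.80 to 6.98. Cacna1d, Cacna1a and Cacna1h averaged 4.66, 4.26 and 4.20 over the 92 arrays and crossed 4, the minimum mean used for a test, in some regions and not in others. Cacna1e, Cacna1g and Cacna1i averaged 3.13, 2.74 and 2.96 and stayed under 4 on every array used. These 3 genes, for R-type and T-type pores, were not testable, and no level is read from them. Dim as well were the other 10 probe sets of the members, which averaged 2.34 to 3.56 and correlated with the used ones at -0.32 to 0.55 over the 92 arrays. Near the floor these can run the other way: 1 of the dim probe sets of Cacna1a was 0.23 lower and 1 of Cacna1d 0.46 lower in the naive mPFC than elsewhere, where the used ones were higher, 1 of Cacna1c was 0.23 higher in the VTA and 1 of Cacna1h 0.24 higher in the CeA, where the used ones were lower. All 4 passed the test when put in the used one's place. The identity of the Cacna1h probe set is not settled: its gene number is that of Cacna1h, whereas RefSeq gives its transcript accession to Cacna1g. Such a conflict was present in 11 of 2899 probe sets that could be checked, 0.379%. It is called Cacna1h here after the annotation, and may report either T-type gene.

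Promoter sequence was at hand for Cacna1a to Cacna1e. The 250 bases in front of the RefSeq transcript start are shown for Cacna1d and Cacna1b, the members with the widest range of regional levels below. Capitals mark the GC box GGGCGG, a short motif that Sp-family factors can bind; it was searched on both strands and matches may overlap.
Cacna1b: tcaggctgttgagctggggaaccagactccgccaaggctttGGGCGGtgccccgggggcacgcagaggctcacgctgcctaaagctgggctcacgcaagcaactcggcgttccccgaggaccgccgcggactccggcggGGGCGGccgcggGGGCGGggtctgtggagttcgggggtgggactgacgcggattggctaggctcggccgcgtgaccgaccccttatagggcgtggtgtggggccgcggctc
Cacna1d: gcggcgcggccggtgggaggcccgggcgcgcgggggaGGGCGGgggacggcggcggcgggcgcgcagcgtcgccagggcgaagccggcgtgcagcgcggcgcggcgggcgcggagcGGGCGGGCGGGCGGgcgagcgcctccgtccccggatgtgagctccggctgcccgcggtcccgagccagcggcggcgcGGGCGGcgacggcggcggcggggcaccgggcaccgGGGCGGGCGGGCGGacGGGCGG
The Cacna1b window is chr3:27944286-27944535 of the rat build GRCr8, minus strand, with 72.0% G or C and 3 GC boxes, and its 3′ end reaches a few bases into the gene model (chromosome 3, 27779133 to 27944292). The Cacna1d window is chr16:5527550-5527799, minus strand, directly before the gene (chromosome 16, 5233682 to 5527549), with 88.8% G or C and 9 GC boxes. A GC box on either strand was present in 30.47% of 33469 rat promoters of the same length. Both windows are thus of the G and C rich kind, which is a description of sequence and bears on no level given here.

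In naive rats the 5 testable members differed between regions, each with a pattern of its own. P/Q-type Cacna1a and N-type Cacna1b were highest in the mPFC, L-type Cacna1d and the Cacna1h probe set were highest in the NAcC, and Cacna1b, Cacna1c, Cacna1d and Cacna1h were all lowest in the VTA. The spread from the highest to the lowest regional mean was 2.51 for Cacna1d, 2.31 for Cacna1b, 1.96 for Cacna1a and 1.27 for Cacna1c, and Cacna1h ran from 5.10 to 3.11. All 5 passed limma's F-test over regions, with adjusted p-values from 2.8e-12 for Cacna1b to 2.7e-06 for Cacna1a. On these arrays 96.6% of the 8792 genes tested passed that test, so that a regional difference as such is the rule, and what describes a member is its order of regions. The plot of array values by region shows all 8 members.

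**Figure D1:**
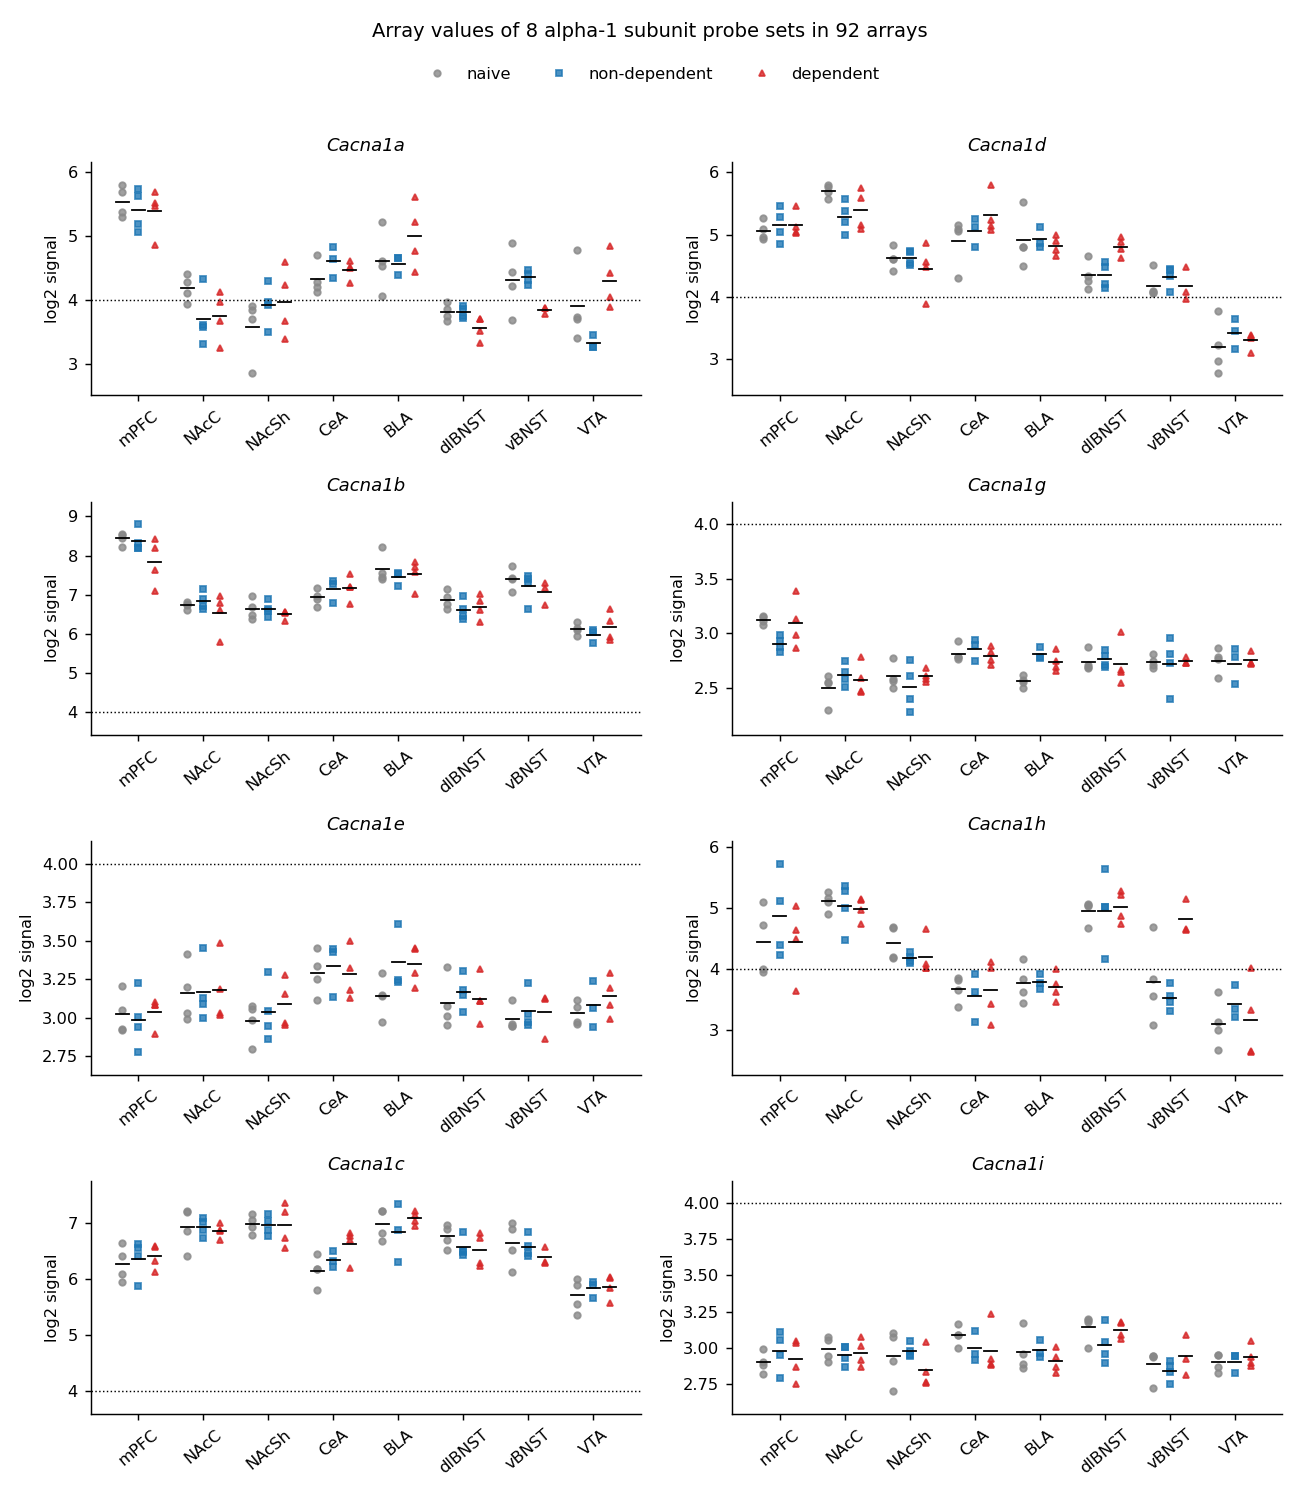
Log2 signal (vertical axis) of the probe set used for each of the 8 alpha-1 genes on the 92 arrays, by brain region (horizontal axis) and group; each point is an array, bars are group means, and the dotted line is the minimum mean of 4 for a test. Cacna1a and Cacna1b stand highest in the mPFC, Cacna1d is lowest in the VTA, and Cacna1e, Cacna1g and Cacna1i stay under 4 on every array.

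Cacna1a, the P/Q-type pore, read 5.80, 5.37, 5.68 and 5.29 on the 4 naive mPFC arrays, a mean of 5.54 ± 0.24 (SD, n = 4). Every one of these arrays was above every naive array of the other regions. The next region was the BLA at 4.60 ± 0.47 (SD, n = 4), and the gap of 0.94 was larger than 2 standard errors. From the BLA down through the CeA, vBNST, NAcC, VTA and dlBNST to the NAcSh at 3.57 ± 0.48 (SD, n = 4), no region differed from its neighbour in the order by 2 standard errors. Against the mean of the other 7 regions, the mPFC was 1.44 ± 0.20 (SE) higher, or 2.71-fold, with an adjusted p of 1.59e-07 by limma. The NAcSh was lower by 0.81 (adjusted p = 0.00131) and the dlBNST by 0.54 (adjusted p = 0.0384). Both means were under 4, and without naive replicate 1, which read 2.86 in the NAcSh, the NAcSh difference was -0.57 with an adjusted p of 0.0561. The dlBNST call was lost without naive replicate 1, 2 or 3, with adjusted p-values of 0.102, 0.166 and 0.0992.

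Cacna1b, the N-type pore, had a clearer order. Its mPFC arrays read 8.46, 8.53, 8.22 and 8.55, a mean of 8.44 ± 0.15 (SD, n = 4), and its VTA arrays read 5.95, 6.31, 6.10 and 6.14, a mean of 6.12 ± 0.15 (SD, n = 4). Between them came the BLA at 7.66 and the vBNST at 7.41, then the CeA, dlBNST, NAcC and NAcSh at 6.94 to 6.64. The gaps below the mPFC, below the vBNST and above the VTA exceeded 2 standard errors, and the other neighbours did not differ by that much. The mPFC was 1.53 ± 0.12 (SE) above the other regions, or 2.88-fold (adjusted p = 2.2e-12), and the VTA 1.12 ± 0.12 (SE) below them, or 2.17-fold (adjusted p = 4.79e-09). The BLA was 0.64 higher (adjusted p = 0.000185) and the vBNST 0.35 higher (adjusted p = 0.0201), while the NAcSh fell by 0.53 (adjusted p = 0.000637) and the NAcC by 0.42 (adjusted p = 0.00471) relative to the rest. For both accumbens regions the rest includes the mPFC at 8.44. Across the alternative processings the adjusted p of the NAcC difference by limma reached 0.0519, so this call did not hold in all of them. The vBNST call was lost without naive replicate 3 or 4, at adjusted p-values of 0.105 and 0.0766.

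Cacna1c, the L-type pore that is also the main channel of heart muscle, varied least of the 5 testable members. It stood at 6.98 ± 0.17 in the NAcSh, 6.98 ± 0.28 in the BLA and 6.92 ± 0.38 in the NAcC (SD, n = 4 each), and no gap between neighbouring regions exceeded 2 standard errors until the VTA. The VTA arrays read 5.90, 5.36, 6.01 and 5.56, which placed the region 0.96 ± 0.15 (SE) below the others, or 1.95-fold (adjusted p = 2.92e-06). Smaller differences passed the test in the NAcSh (0.49, adjusted p = 0.00775), the BLA (0.49, adjusted p = 0.0135), the NAcC (0.42, adjusted p = 0.0208) and the CeA (-0.46, adjusted p = 0.0145). The NAcSh, BLA, NAcC and CeA calls were each lost with at least 1 naive replicate left out. The adjusted p-values were then 0.0537 without replicate 1 for the NAcSh, 0.0792 and 0.0534 without replicates 2 and 3 for the BLA, 0.0672, 0.125 and 0.159 without replicates 1, 2 and 4 for the NAcC, and 0.0685, 0.0636 and 0.0565 without the same 3 replicates for the CeA. Only the low VTA level of Cacna1c therefore held with every naive replicate left out in turn.

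Cacna1d, the L-type pore that opens at less depolarized potentials, had the widest range. In the NAcC it read 5.57, 5.68, 5.77 and 5.80, a mean of 5.70 ± 0.11 (SD, n = 4), and in the VTA 2.78, 3.78, 2.97 and 3.23, a mean of 3.19 ± 0.43 (SD, n = 4). The NAcC was above its neighbour in the order, the mPFC at 5.06, and the VTA below its neighbour, the vBNST at 4.18, by more than 2 standard errors, and no other neighbours differed by that much. The adjacent shell of the accumbens, at 4.62 ± 0.17 (SD, n = 4), was 0.01 above the mean of the other regions, with an adjusted p of 0.970. Against the other regions the NAcC was 1.24 ± 0.15 (SE) higher, or 2.37-fold (adjusted p = 7.22e-08), and the VTA 1.63 ± 0.15 (SE) lower (adjusted p = 2.02e-10). The VTA mean lies near the floor of the arrays, so no fold is given for it. The NAcC fold is approximate, since the mean of its other regions includes the VTA. The mPFC was 0.51 higher (adjusted p = 0.00302) and the vBNST 0.49 lower (adjusted p = 0.00821). The mPFC call did not hold under another scaling of the arrays: it was 0.23 after quantile normalization and after median scaling, with adjusted p-values of 0.160 and 0.166.

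The Cacna1h probe set, T-type by either annotation, was highest in 2 regions that are not neighbours. It read 5.26, 5.09, 4.90 and 5.16 in the NAcC and 5.03, 4.67, 5.04 and 5.07 in the dlBNST, with means of 5.10 ± 0.15 and 4.95 ± 0.19 (SD, n = 4 each), and these did not differ by 2 standard errors. The mPFC and NAcSh followed at 4.44 and 4.43. The vBNST, the ventral part of the same nucleus as the dlBNST, was at 3.79 ± 0.68 (SD, n = 4), the BLA at 3.77, the CeA at 3.67 and the VTA at 3.11 ± 0.39 (SD, n = 4). The NAcC was 1.08 ± 0.20 (SE) above the other regions (adjusted p = 3.3e-05), the dlBNST 0.91 ± 0.20 (SE) above them (adjusted p = 0.000793) and the VTA, at 3.11 against 4.31, was below them (adjusted p = 4.7e-06). The CeA was lower by 0.55 (adjusted p = 0.0226), a call lost without naive replicate 1, 2 or 4, at adjusted p-values of 0.0703, 0.0505 and 0.0675.

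Counted by region, the 5 testable members gave 22 calls, 11 higher and 11 lower. In the mPFC 3 were higher and 0 lower, on a background of 37.8% of all genes higher and 43% lower. In the NAcC 3 were higher and 1 lower (20.6% and 32.4% of all genes), in the NAcSh 1 and 2 (19.8% and 32.8%), and in the CeA 0 and 2 (21.8% and 22.6%). In the BLA 2 were higher and 0 lower (13.7% and 21.9%), in the dlBNST 1 and 1 (20.7% and 11.6%), and in the vBNST 1 and 1 (28.9% and 19.2%). In the VTA 0 were higher and 4 lower, on a background of 33.3% higher and 30.7% lower. The fifth, Cacna1a, was 0.43 lower there with an adjusted p of 0.0611.

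Marker genes of other cell types differed in the same regions. All 7 oligodendrocyte markers tested were higher in the naive VTA than in the other regions, by a median of 1.54, and 3 of 3 markers of GABA neurons were lower, by a median of 0.89. There 4 of 7 astrocyte markers were higher and 3 lower, 4 of 5 striatal neuron markers were lower and 4 of 4 dopamine neuron markers higher. In bulk tissue, fewer cells of a type and less RNA per cell cannot be told apart, and the part of these cell types in the low channel levels was not tested. In the mPFC, 3 of 3 markers of cortical glutamatergic neurons were higher, by a median of 5.48, 5 of 7 astrocyte markers were higher and 1 lower, 3 of 7 oligodendrocyte markers were higher and 2 lower, and 3 of 3 markers of GABA neurons were lower. In the NAcC, 5 of 5 striatal neuron markers were higher, by a median of 4.24, and 2 of 7 oligodendrocyte and 3 of 7 astrocyte markers lower. The part of these in the mPFC and NAcC levels was not tested either. With each array scaled to its median, the median mPFC difference of all genes moved from -0.07 to -0.36 and the share of genes above 0 from 46.8% to 35.9%, while the NAcC and NAcSh moved up by 0.12 and 0.11 and their shares from 42.0% to 54.4% and from 41.3% to 52.5%. The BLA share moved from 40.9% to 52.4%. The high Cacna1a and Cacna1b levels of the mPFC passed the test under both scalings.

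The regional patterns were then read again in the alcohol-exposed rats, whose 29 non-dependent and 31 dependent arrays had no part in the naive calls. Of the 22 naive calls, 22 had the same direction in non-dependent and 21 in dependent rats. In each group 18 of the 22 passed the test again, 81.8%, where the share over all genes was 76.9% in non-dependent and 70.1% in dependent rats. Cacna1a in the mPFC stood 1.44 above the other regions without alcohol, 1.36 in non-dependent rats and 1.25 in dependent ones, and Cacna1b 1.53, 1.55 and 1.02. Cacna1d in the NAcC was 1.24, 0.73 and 0.82 above them, and in the VTA it was at -1.63, -1.40 and -1.57. Cacna1h in the dlBNST was at 0.91, 0.90 and 0.88.

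Some calls did not repeat. The low Cacna1c level of the naive CeA (-0.46) was -0.23 in non-dependent rats (adjusted p = 0.224) and 0.04 in dependent rats (adjusted p = 0.840), and Cacna1b in the NAcC and in the vBNST passed in neither group. Cacna1c in the BLA failed in non-dependent rats (0.33, adjusted p = 0.107) and Cacna1a in the NAcSh in dependent rats (-0.36, adjusted p = 0.120). A few differences that were not called in naive rats stood out later: Cacna1a in the VTA was -0.43 in naive rats, -1.01 in non-dependent ones and 0.02 in dependent ones, and Cacna1h in the vBNST was -0.42, -0.73 and 0.64 in the same groups. These 2 places return below, among the alcohol groups.

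**Figure D2:**
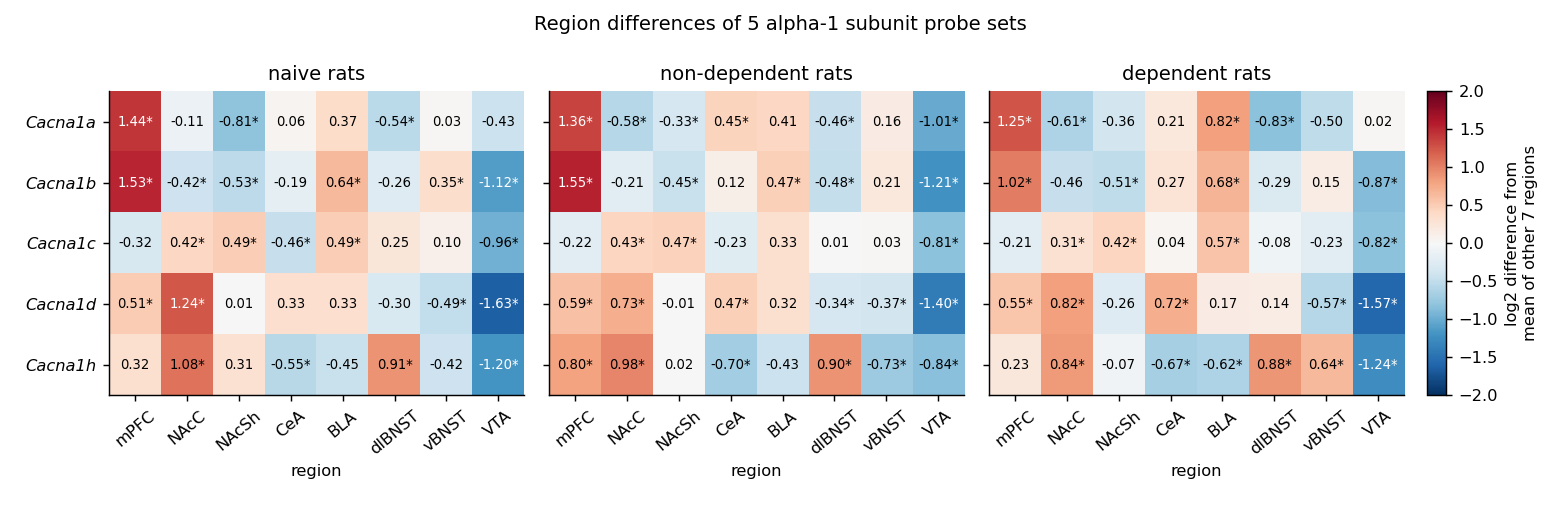
Log2 difference of each region from the mean of the other 7 regions (colour and printed value) for the 5 testable alpha-1 genes, with regions on the horizontal axis, in naive, non-dependent and dependent rats; stars mark an adjusted p under 0.05. The mPFC columns of Cacna1a and Cacna1b and the VTA columns of Cacna1b, Cacna1c, Cacna1d and Cacna1h keep their sign in all 3 groups.

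Across the 24 means of region and group, the members did not share a single order. Cacna1a and Cacna1b were the most alike pair (Pearson r = 0.87, Spearman rho = 0.81), and the L-type genes Cacna1c and Cacna1d correlated at r = 0.61 and rho = 0.31. The 24 points share rats, dissections and amplification, so these are descriptions. Among all genes with a mean above 4, those most like Cacna1a were the adaptor gene Nck2 (r = 0.92), Gramd4 (0.91) and Tle3 (0.89). Those most like Cacna1b were Abr (0.95), the neuronal calcium sensor gene Ncs1 (0.94) and Wdr47 (0.94), and those most like Cacna1c were Med23 (0.93), Ppp1r12a (0.92) and the cell adhesion gene Chl1 (0.91). For Cacna1d they were Ppp3ca, the catalytic subunit of calcineurin (0.93), Anks1b (0.92) and Mink1 (0.92). For Cacna1h they were Repin1 (0.91), the acid-sensing channel gene Asic1 (0.85) and Chtf8 (0.84).

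Channel pores are assembled with auxiliary subunits, and those had regional patterns too. Alpha-2-delta subunits bring channels to the surface, beta subunits help the pore fold and reach the membrane, and gamma subunits include the TARPs, which traffic glutamate receptors. Of the alpha-2-delta genes, 2 were testable. Cacna2d1 averaged 11.18 in the naive mPFC, 2.18 ± 0.14 (SE) above the other regions, and was 1.45 higher in the BLA and, at 10.15, also higher in the NAcC, but 2.07 lower in the VTA at 7.46. Cacna2d3 was higher in the NAcC (1.25) and NAcSh (0.95). Of the 3 testable beta genes, Cacnb3 was 3.61 ± 0.14 (SE) higher in the mPFC and Cacnb1 2.38 higher, whereas Cacnb2 was lower there, at 6.69 against 7.69, and 1.03 higher in the NAcC. All 5 were lower in the VTA than the mean of the other 7 regions, by 0.41 to 2.07, and every difference named here passed the test after adjustment. That mean includes the mPFC, where Cacnb1, Cacnb3 and Cacna2d1 were high. The VTA was the lowest region only for Cacna2d1 and Cacnb3. The lowest was the NAcSh for Cacnb1, the vBNST for Cacna2d3 and the mPFC for Cacnb2. The TARP gene Cacng2 was the 1 testable gamma gene (0.54 in the mPFC), and the remaining alpha-1 genes, Cacna1f and Cacna1s, stayed under the minimum.

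**Figure D3:**
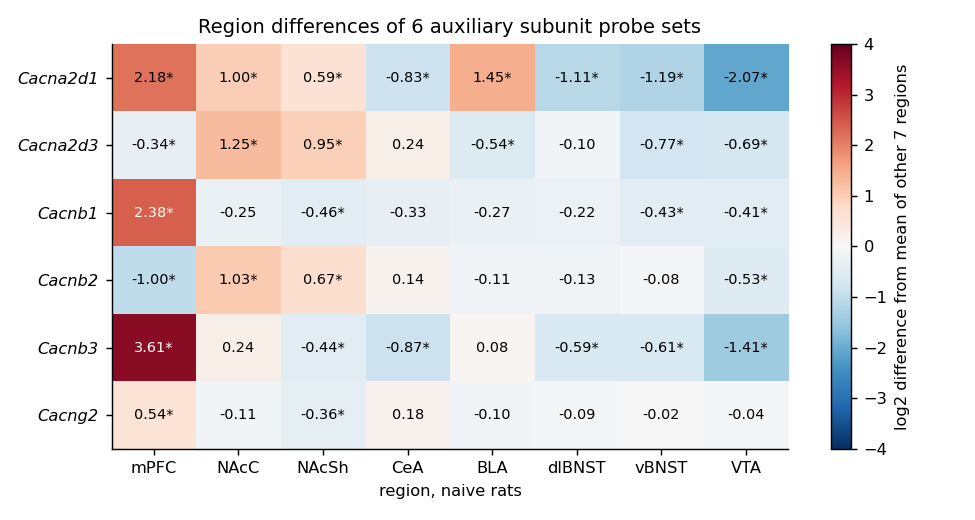
Log2 difference of each naive region from the mean of the other 7 regions (colour and printed value) for the 6 testable auxiliary subunit genes, regions on the horizontal axis; stars mark an adjusted p under 0.05. Cacnb3, Cacnb1 and Cacna2d1 stand out upward in the mPFC, and 5 of the 6 genes are lower in the VTA.

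The genes that act with calcium entry were counted in the mPFC, NAcC and VTA. Of 10 testable release-site partners, proteins of the vesicle fusion machinery and active zone, 7 were higher and 1 lower in the naive mPFC, among them Stx1a, a syntaxin that binds N-type channels (7.15), complexin Cplx2 (3.49) and the calcium sensor Syt1 (3.22). In the NAcC 3 were higher and 3 lower. In the VTA 1 was higher, complexin Cplx1 (1.16), and 8 were lower, among them the active-zone gene Rims2 (-2.13), Cplx2 (-1.74) and Stx1a (-1.57). The mean of the other 7 regions includes the mPFC, which stood 7.62 above the VTA for Stx1a and 4.58 above it for Cplx2. The VTA differences of both genes therefore hold a large part that comes from the high mPFC. Of 12 genes of calcium-dependent signaling, 10 were lower and 0 higher in the VTA, with Akap5, an anchor of L-type channel signaling, at -5.30 and the kinase gene Camk2a at -3.68, while 7 were higher and 3 lower in the mPFC and 7 higher and 2 lower in the NAcC. All 3 testable genes of intracellular calcium release were lower in the VTA, Itpr1 by 1.79, while 2 were higher and 1 lower in the mPFC and 2 higher and 0 lower in the NAcC. Of 7 genes of calcium clearance and buffering, 2 were higher in the VTA, the exchanger gene Slc8a1 (1.26) and the calretinin gene Calb2 (1.43), and 3 were lower, and the mPFC and the NAcC each had 3 higher and 2 lower. The shares of all genes were those given for the mPFC, NAcC and VTA above. The list medians in the VTA were -0.83, -1.06, -0.95 and -0.17, in the order named, beside 0.02 over all genes. In the mPFC they were 0.93, 0.23, 0.72 and 0.12 beside -0.07, and in the NAcC -0.01, 0.56, 1.67 and 0.02 beside -0.08.

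No alpha-1 gene differed between alcohol groups after adjustment. In each region the 3 groups were compared in pairs with limma, 24 comparisons in all, and a member was tested where its mean exceeded 4, which gave 31 pairs of gene and region and 93 tests. 0 of the 93 passed an adjusted p of 0.05, by limma or by the methods' pairwise t-statistic. The share of all genes that passed was 0.103% in the dlBNST from naive to dependent rats, 0.0779% in the mPFC from naive to non-dependent rats, 0.0556% in the mPFC from naive to dependent rats and 0% in every other comparison. At an unadjusted p under 0.05 there were 8 member tests, 8.60%, against 8.79% of the tests of all genes, a share close to that background. The share of all genes at an unadjusted p under 0.05 was, for naive against non-dependent, non-dependent against dependent and naive against dependent rats in that order, 17.7%, 5.2% and 17.1% in the mPFC, 6.5%, 6.13% and 8.92% in the NAcC, 4.41%, 8.16% and 12.2% in the NAcSh, and 6.81%, 4.65% and 7.23% in the CeA. It was 6.28%, 5.81% and 5.94% in the BLA, 6.7%, 6.97% and 15.7% in the dlBNST, 7.35%, 5.09% and 15% in the vBNST, and 6.51%, 15.3% and 8.43% in the VTA. The median difference was 0.14 in size and the largest 0.60. With 3 or 4 arrays a group the 95% interval reached 0.38 to either side at the median test, from 0.30 to 0.81, so that changes smaller than this cannot be told from none.

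**Figure D4:**
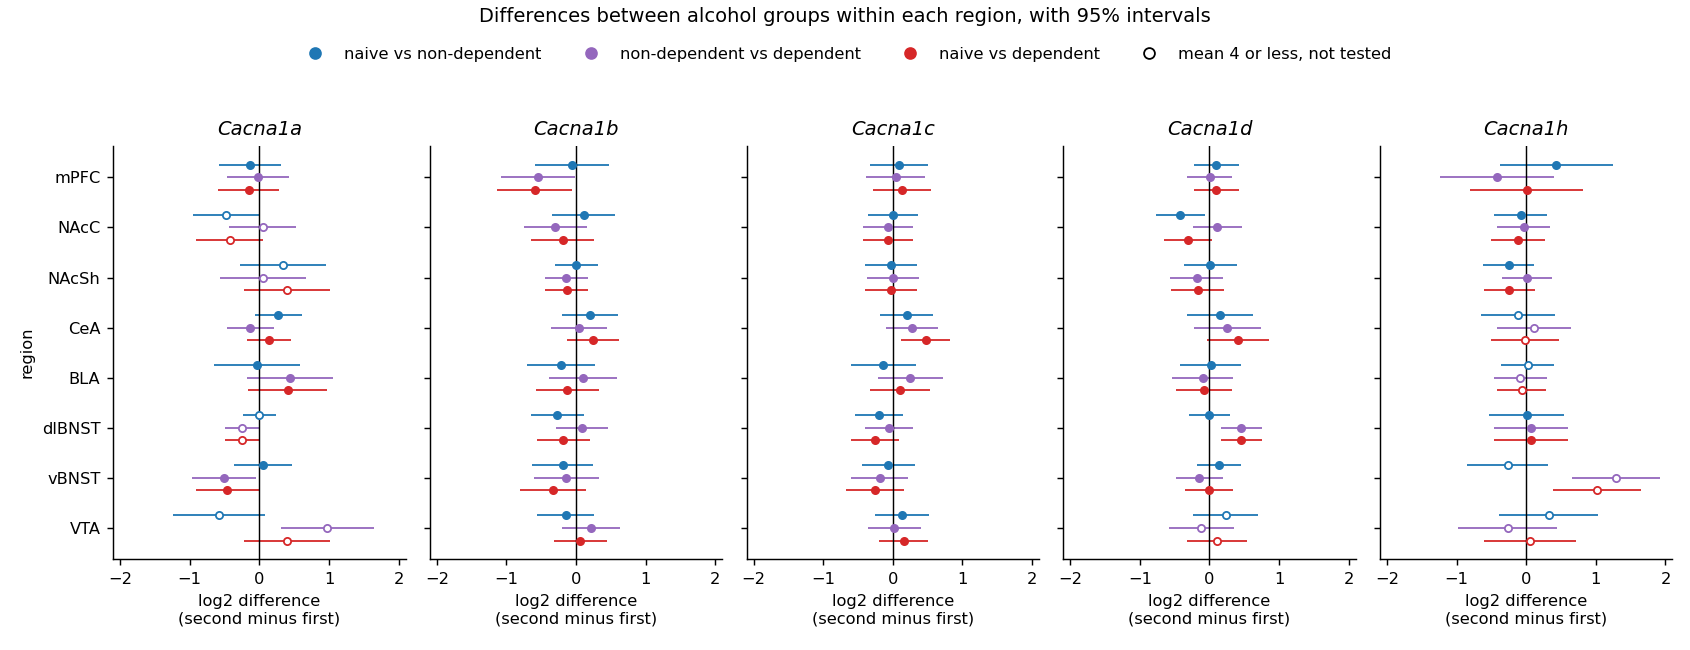
Log2 difference between alcohol groups, second minus first group (horizontal axis), for the 5 alpha-1 genes in each region (vertical axis); points are limma estimates, bars 95% intervals, and open points are pairs whose mean was 4 or less. Most intervals cross 0, and the open points of Cacna1h in the vBNST and Cacna1a in the VTA lie farthest from it.

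The 8 tests with an unadjusted p under 0.05 are described next, and all fail the correction. Where arrays of 2 groups are said not to overlap, here or for pairs under the minimum, this only describes their values. With 3 or 4 arrays a group such a separation can arise by chance, and its share over all genes is not given here. Cacna1b in the mPFC read 8.46, 8.53, 8.22 and 8.55 in naive, 8.20, 8.21, 8.33 and 8.81 in non-dependent, and 7.10, 7.64, 8.42 and 8.20 in dependent rats. Dependent rats reached both the lowest values and the range of the other groups. The dependent mean was lower by 0.60 ± 0.25 (SE) than in naive rats (adjusted p = 0.251, 17.1% of all genes at p under 0.05) and by 0.54 ± 0.25 (SE) than in non-dependent rats (adjusted p = 0.943, 5.2% of all genes). Without dependent replicate 1 these were -0.35 and -0.30. The mean of the array's hybridization controls was 9.47 to 9.81 in dependent and 10.10 to 10.27 in non-dependent mPFC arrays, and its part in the difference was not tested. From naive to dependent rats 4 of 7 oligodendrocyte and 3 of 8 astrocyte markers were lower and 2 of 4 cortical glutamatergic markers higher at an unadjusted p under 0.05, and their part was not tested either.

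Cacna1a in the vBNST read 4.46, 4.31, 4.40 and 4.23 in non-dependent rats and 3.87, 3.78 and 3.88 on the 3 dependent arrays used, without overlap, and 4.21, 4.43, 4.88 and 3.68 in naive rats. The differences were -0.51 ± 0.21 (SE) from non-dependent rats (adjusted p = 0.917, 5.09% of all genes) and -0.46 ± 0.21 (SE) from naive rats (adjusted p = 0.328, 15% of all genes), the latter -0.27 without naive replicate 3. The left-out dependent array read 2.92, and with it the differences were -0.74 (adjusted p = 0.662) and -0.69 (adjusted p = 0.378). Both thalamic markers tested were higher on the dependent vBNST arrays than on the non-dependent ones at an unadjusted p under 0.05, by a median of 0.72, with list means of 5.18 to 5.87 against 4.85 to 5.57. From naive to dependent rats the same markers (4.74 to 5.06 against 5.18 to 5.87), endothelial markers (2 of 4 higher, 5.94 to 6.41 against 6.45 to 6.68), the 1 choroid plexus marker tested (list means 3.47 to 4.02 against 4.10 to 4.75) and striatal neuron markers (2 higher and 1 lower of 4, 4.85 to 5.02 against 5.08 to 5.24) stood apart. Their part, and that of the Gapdh 3′ to 5′ difference (at least 2.40 in naive and at most 1.82 in dependent arrays), was not tested.

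The L-type genes gave differences in 3 regions, the dlBNST, NAcC and CeA. Cacna1d in the dlBNST read 4.62, 4.76, 4.96 and 4.87 in dependent rats, above all non-dependent arrays (4.56, 4.49, 4.14 and 4.21), while 1 of the naive arrays reached into its range (4.13, 4.34, 4.66 and 4.26). The dependent mean was 0.46 ± 0.14 (SE) above that of non-dependent rats (adjusted p = 0.690, 6.97% of all genes) and 0.46 ± 0.14 (SE) above that of naive rats (adjusted p = 0.162, 15.7% of all genes). With each array left out in turn these ran from 0.39 to 0.53 and from 0.38 to 0.56. No marker list or array measure stood apart between dependent and non-dependent dlBNST arrays. From naive to dependent rats the Gapdh 3′ to middle difference did (3.49 to 3.71 against 1.67 to 3.40), and its part was not tested.

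Cacna1d in the NAcC, its highest region, read 5.57, 5.68, 5.77 and 5.80 in naive and 5.37, 5.57, 5.20 and 4.99 in non-dependent rats, which overlap narrowly, and 5.16, 5.74, 5.58 and 5.09 in dependent rats, which span both. The difference was -0.42 ± 0.16 (SE) from naive to non-dependent rats (adjusted p = 0.738, 6.5% of all genes). Oligodendrocyte markers averaged 9.34 to 9.43 in those naive and 8.96 to 9.15 in those non-dependent arrays, with 2 of 7 lower at an unadjusted p under 0.05. Cacna1c in the CeA read 5.80, 6.17, 6.45 and 6.17 in naive, 6.51, 6.32 and 6.21 in non-dependent and 6.70, 6.82, 6.77 and 6.19 in dependent rats, where 3 of the 4 dependent arrays exceeded all others. It was 0.47 ± 0.16 (SE) higher in dependent than in naive rats (adjusted p = 0.575, 7.23% of all genes). In the same arrays all 7 oligodendrocyte markers (9.59 to 9.76 against 8.94 to 9.29) and 2 of 4 microglia markers (6.05 to 6.12 against 5.70 to 5.91) were lower, and 1 of 5 striatal neuron markers was higher (list means 5.93 to 6.10 against 6.12 to 6.40). Their part in either gene's difference was not tested.

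The largest alcohol differences of the family lay under the minimum mean and are named after their values were seen. For a count, the members were added to the genes above the minimum and the fits repeated. There 6 of the 99 tests of the 33 pairs under it had an unadjusted p under 0.05. In separate fits without the minimum over all 14218 genes, 7.72% of the tests of all genes did, and 0 member tests passed after adjustment. Member tests under 0.05 were not counted in those fits and may be more, so the count and the share come from unlike fits. The adjusted p-values and shares that follow are from the fits without the minimum. The Cacna1h probe set in the vBNST read 3.46, 3.31, 3.55 and 3.77 in non-dependent rats and 4.63, 5.15 and 4.64 on the 3 dependent arrays used, with 3.08, 3.84, 3.55 and 4.69 in naive rats. The dependent arrays lay above all non-dependent ones, while 1 naive array reached them. The differences were 1.29 ± 0.29 (SE) from non-dependent rats (adjusted p = 0.590, 5.22% of all genes) and 1.02 ± 0.29 (SE) from naive rats (adjusted p = 0.189, 12.4% of all genes). The left-out dependent array read 6.03, and with it they were 1.59 (adjusted p = 0.704) and 1.32 (adjusted p = 0.354). Without naive replicate 4 the second was 1.32 with an adjusted p of 0.0514. These are the vBNST arrays whose thalamic, endothelial, choroid plexus and striatal markers were described with Cacna1a. In the neighbouring dlBNST the same probe set read 4.67 to 5.07 in naive, 4.16 to 5.63 in non-dependent and 4.73 to 5.27 in dependent rats, groups that overlap.

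Cacna1a in the VTA read 3.25, 3.46 and 3.27 on the 3 non-dependent arrays used and 3.88, 4.42, 4.85 and 4.05 in dependent rats, without overlap, and 3.41 to 4.78 in naive rats, across both. The difference between dependent and non-dependent rats was 0.97 ± 0.30 (SE; adjusted p = 0.240, 12.9% of all genes). With the left-out non-dependent array, which read 3.97, it was 0.81 (adjusted p = 0.344) and the groups overlapped. The Gapdh 3′ to middle difference was 2.57 to 3.15 in those non-dependent and 3.25 to 3.93 in those dependent arrays, and its part was not tested. The 2 smaller places were Cacna1a in the dlBNST, at -0.25 in dependent rats against non-dependent (adjusted p = 0.774, 6.26% of all genes) and naive rats (adjusted p = 0.342, 12.5% of all genes), and Cacna1g in the BLA, at 0.25 from naive to non-dependent rats (adjusted p = 0.832, 5.89% of all genes). Cacna1g is one of the genes at the floor of the arrays, so that no change in its expression is read from this value.

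**Figure D5:**
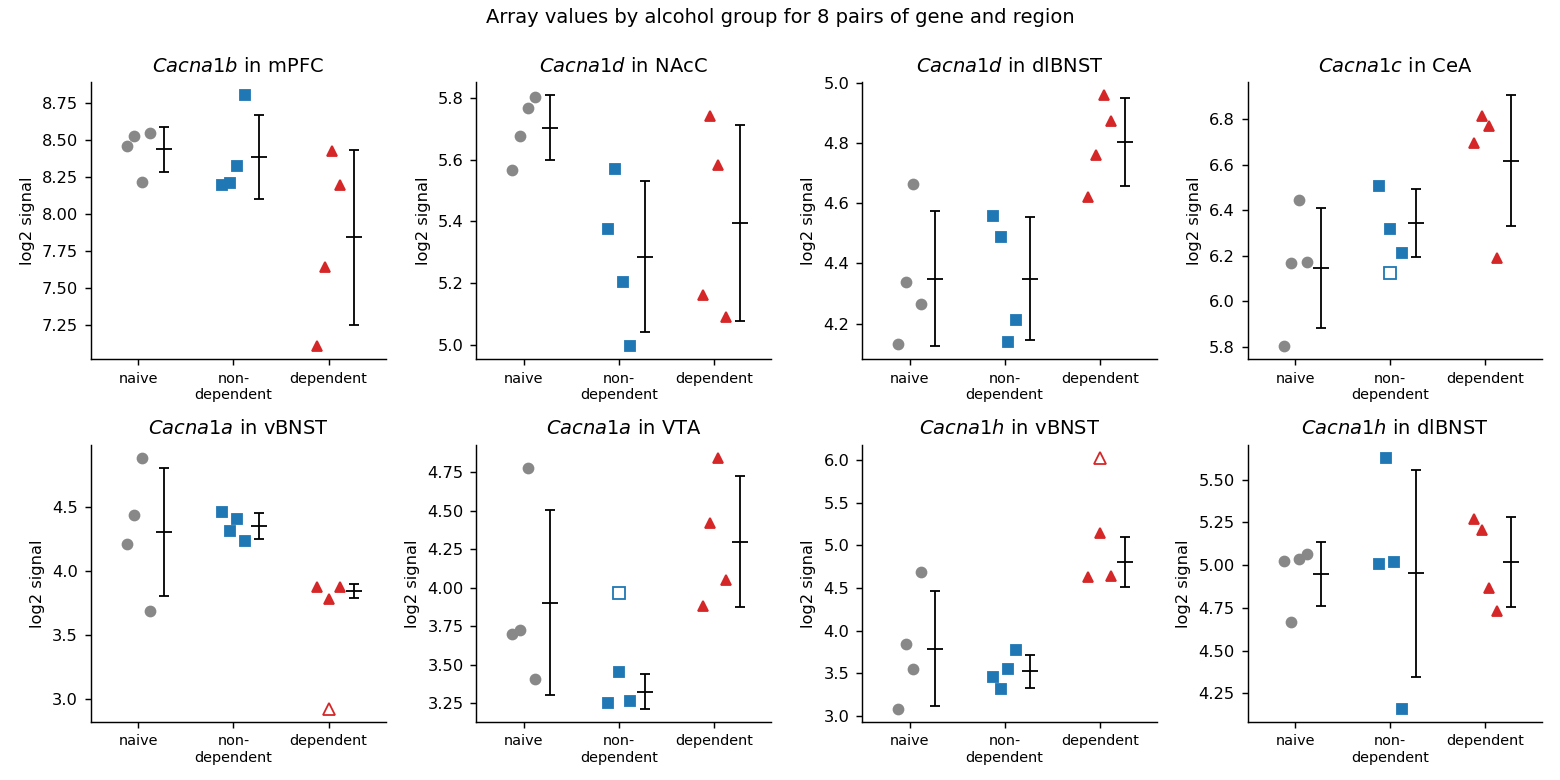
Log2 signal (vertical axis) by alcohol group (horizontal axis) for 7 of the pairs of gene and region described with the alcohol groups. Cacna1h in the dlBNST is added beside its vBNST values, and Cacna1a in the dlBNST and Cacna1g in the BLA are not shown. Filled symbols are arrays used, open symbols arrays left out, and bars means ± SD of the arrays used; Cacna1d in the dlBNST and Cacna1h in the vBNST show dependent arrays above all non-dependent ones.

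Whether the alcohol groups differed in unlike ways between regions was tested with a single F-test of 14 region by group terms over the 92 arrays. No testable member passed, where 2.35% of all genes did. Cacna1a had the smallest p (adjusted p = 0.161), followed by Cacna1h (adjusted p = 0.319) and Cacna1d (adjusted p = 0.393). With limma's array weights, which count noisier arrays for less, Cacna1a and Cacna1h passed (adjusted p = 0.00225 and 0.0184), in a fit where 19.3% of all genes did. Among the partners, the beta subunit gene Cacnb1 (adjusted p = 0.0121) and the complexin gene Cplx2 (adjusted p = 0.00697) passed the unweighted test.

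None of the alpha-2-delta, beta, gamma, release-site, signaling, calcium release or clearance genes passed after adjustment in any of the 24 comparisons. At an unadjusted p under 0.05 the shares were 10.42% of 48 alpha-2-delta tests, 13.04% of 69 beta tests, 14.81% of 27 gamma tests, 9.46% of 222 release-site tests, 8.15% of 270 signaling tests, 10.67% of 75 calcium release tests and 8.05% of 174 clearance tests, beside 8.79% over all genes. The smallest p-values among auxiliary subunits belonged to Cacna2d1 in the dlBNST, at 7.42 in dependent against 8.30 in naive rats (adjusted p = 0.128), and to Cacnb1 in the mPFC, at 5.42 in dependent against 6.45 in naive rats (adjusted p = 0.121).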

How the data were processed

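Total RNA of microdissected tissue was amplified, labeled with biotin and hybridized to Affymetrix whole-genome rat arrays. The deposited values are log2 signals of 31099 probe sets, made by the authors with GCRMA 2.36.0 under R 3.03 per the labels; no further scaling was applied. Probe sets were named from the array's platform annotation (20832 name 1 gene, 436 several, 9831 none), and the one with the highest mean over 92 arrays stands for a gene. Members and lists were chosen with earlier results of these data known. Named besides the members are partner genes with the smallest p-values, at most 4 per list and contrast, and the 3 genes most correlated with each member.

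limma 3.58.1 (R 4.3.3) was used with genes of mean above 4 and Benjamini-Hochberg adjustment over all genes kept (8445 to 8989 per region) at 0.05: an F-test over naive regions and each region against the mean of the other 7 (32 arrays, 8792 genes), the 3 groups within each region, and a region by group F-test (92 arrays, 8762 genes). P-values measure the spread between these arrays, and array number limits precision. On data simulated from NAcC arrays with 200 genes changed at once, the fit called 18 of 50 genes set 0.5 apart, 39 of 50 set 1 apart and 49 of 50 set 2 apart. It also called 6 of 8245 unchanged genes. With fewer changed genes the adjustment is stricter, and some groups had 3 arrays. These rates are therefore no measure of what the alcohol comparisons could detect. Figures and summaries used Python 3.11.15, numpy 2.4.6, pandas 2.3.3 and matplotlib 3.10.9. Promoters are from RefSeq tables of build GRCr8. Alternatives were no minimum or one of 6, quantile normalization, median scaling, the mean of all probe sets, other probe sets, array weights, a replicate block, all 96 arrays, and arrays left out in turn; the fits under the minimum were added after seeing the data.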

Additional observations from a re-analysis of the deposited data

Results flagged for a closer look

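In 14 of 160 groups of 4 arrays, 1 array stood far from the other 3 by Dixon's 95% limit on its gap to the nearest; chance gives about 1 such group in 20. Among testable members, naive replicate 4 in the CeA read 4.31 for Cacna1d (others 5.05 to 5.16), and naive replicate 3 in the vBNST 4.51 (others 4.06 to 4.09). Dependent replicate 3 in the VTA read 3.11 for Cacna1d (others 3.34 to 3.39). For Cacna1b, dependent replicate 3 in the NAcSh read 6.32 (others 6.55 to 6.57). For Cacna1h, dependent replicate 2 in the NAcSh read 4.65 (others 4.01 to 4.08), and naive replicate 2 in the dlBNST 4.67 (others 5.03 to 5.07).

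The other 8 concern members at the floor of the arrays. Cacna1e read 2.89 in mPFC dependent 3 and 3.12 in vBNST naive 4. Cacna1g read 2.93 in CeA naive 4, 2.87 in dlBNST naive 2 and 2.83 in VTA dependent 4. Cacna1i read 3.23 in CeA dependent 1, 3.00 in dlBNST naive 4 and 2.72 in vBNST naive 1.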

How the results depend on the processing

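The high mPFC levels of Cacna1a and Cacna1b and the low VTA levels of Cacna1b, Cacna1c, Cacna1d and Cacna1h held under each scaling, the replicate block, array weights and every replicate left out. With a minimum of 6, members called fell to 2 in the F-test over regions, 1 in the mPFC, 2 in the NAcC, 1 in the CeA, 0 in the dlBNST, 1 in the vBNST and 2 in the VTA, with 7 and 8 repeats in non-dependent and dependent rats, since fewer genes were tested. The mean of all probe sets, most of them dim, gave 2 in the F-test, 1 in the NAcC, NAcSh and CeA, 0 in the dlBNST and vBNST, 2 in the VTA and 6 repeats in either group. Quantile normalization left 1 call in the vBNST, and its cause was not tested. All 92 arrays with group as a covariate gave 5 in the mPFC and 5 in the BLA, in a fit that also raised the share of all genes called from 80.8% to 88.5% and from 35.6% to 56.4%. Array weights gave 2 interaction calls. Leaving out 1 naive replicate gave 1 to 3 calls in the NAcSh, 0 to 2 in the CeA and 1 to 2 in the BLA, dlBNST and vBNST.

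Other probe sets of the same genes, all near the floor, turned some signs: Cacna1a in the mPFC (-0.053 and -0.23) and NAcSh (0.16), Cacna1b in the BLA (-0.19) and vBNST (-0.10), Cacna1c in the NAcC (-0.042), NAcSh (-0.083) and VTA (0.23), Cacna1d in the mPFC (-0.46), vBNST (0.18) and VTA (0.15 and 0.087) and Cacna1h in the NAcC (-0.044), CeA (0.24) and dlBNST (-0.062). Among alcohol differences they gave 0.00040 for Cacna1d in the NAcC, and for Cacna1a in the vBNST 0.030 against non-dependent and 0.022 and 0.028 against naive rats. Some of these opposite values passed the test: -0.46 for Cacna1d and -0.23 for Cacna1a in the mPFC, 0.23 for Cacna1c in the VTA and 0.24 for Cacna1h in the CeA. No alternative brought an alcohol difference of a member past the threshold. The replicate block left Cacna1b in the mPFC at -0.60 from naive to dependent rats (adjusted p = 0.186) and changed no call; 27 of 88 same-numbered pairs correlated above 0.1, and in 0 of 24 comparisons did all, so the numbers were not taken as pairs.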
